A study of Mus musculus with 12 samples.

Results

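Compact protein-coding genes, here those whose whole annotated span is under 4000 nt, held 479 of the 19486 ESRP1 contact regions that at least 2 of 3 site lists shared in mouse epidermis. Regions of any list numbered 45738. The contacts come from eCLIP, in which a protein is crosslinked to its RNA by ultraviolet light and the stops of reverse transcription mark the contact to the nucleotide. All libraries came from epidermis of back skin of pups on postnatal day 1 with the genotype Esrp1FLAG/FLAG, so that the endogenous ESRP1 carries the tag and the inputs share the genotype. The labels list 6 FLAG immunoprecipitations and 6 inputs, as biological replicates 1 to 6, with membrane cut from 75 to 140 kDa, and no untagged animals are among these samples. The authors deposited 3 lists of single-nucleotide sites called with input, where list 1 joins replicates 1 and 2, list 2 joins 3 and 4, and list 3 joins 5 and 6.

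Members were chosen from the sites themselves. Neighbouring sites of one strand within 10 nt were merged, first inside a list and then across lists, and a region was kept when at least 2 lists had a site in it. Its middle had to lie in a single protein-coding span of the GRCm38 annotation, on the strand with most sites of that span. Genes of ribosomal proteins (Rpl, Rps) and keratins (Krt) were left out, which removed 47 further regions in 22 genes. Of 4150 compact protein-coding genes 271 held a member region, or 6.53%, and 188 genes, or 4.53%, held 1 of the 255 regions with sites in all 3 lists. In longer genes the share was 30.2%. The number of members depends on each list: it was 298 without list 1, 401 without list 2 and 294 without list 3. The rule describes such genes as mostly exonic, and this was not checked because exons were not used here.

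ESRP1 is an RNA-binding protein of epithelial cells known for choosing alternative exons and for binding RNA rich in U and G. A compact gene has few or short introns, and many have a single exon, so that more of its span stays in the mature mRNA than in a gene with long introns. Genes of this kind include those of structural proteins of the cornified layer, immediate early genes, histones, stress chaperones and many subunits of housekeeping complexes.

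Of the 479 regions, 22 lay with 30 nt around their middle inside windows that RefSeq gives around gene starts on GRCm38.p6, so that their sequence could be read. The 8 shown were chosen after their values were seen, to show the letters under contacts in genes of different function. They run 5′ to 3′ on the RNA strand with T for U, and capitals mark each nucleotide that held a site in at least 1 list.
Hspe1: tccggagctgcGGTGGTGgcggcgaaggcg
Mrpl43: ccgagtaggtGGGTGGaGcctaccagccgg
Prdx5: gaaagaagcaGGtTGGGaGtgtggcggagc
Tmem254b: gagaTGGtgGTggcgaaGtcGGaGgcccgt
Atp6v1f: gggcatcacaGGtgttTGGgaagcgctctg
Phpt1: gcctgggtcgggtTTGgtaaggggctgtgg
Ndufa1: acctctGaGGagccGGtgacgGgttggcgt
Alyref: ggccgcggcggGGgccGGggtcgcggcagg

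These windows lay at chr1:55088374-55088403 (+) for Hspe1, chr19:45005604-45005633 (-) for Mrpl43, chr19:6909502-6909531 (-) for Prdx5 and chr14:26206492-26206521 (-) for Tmem254b. The others were at chr6:29467774-29467803 (+) for Atp6v1f, chr2:25574868-25574897 (-) for Phpt1, chrX:37191109-37191138 (-) for Ndufa1 and chr11:120598246-120598275 (-) for Alyref. The highest scores in lists 1, 2 and 3 were 15.8, 7.86 and 72.3 in the window of Hspe1, a mitochondrial chaperonin gene, and 57.9, 37.1 and 73.3 in that of Ndufa1, a subunit of respiratory complex I. In Atp6v1f, a subunit of the proton pump of vacuoles, they were 35.2, 0.310 and 80.8, and list 2 was far below the others. Phpt1, a histidine phosphatase gene, had 23.5, 27.4 and 43.2, and Mrpl43, of the mitochondrial ribosome, 49.8, 19.9 and 23.9. All 8 regions had sites in each list. Contacts fell on G, and less often on T. At the highest-scoring nucleotide of a region, G was the base in 84.0% of 25 member regions of list 1, 68.4% of 19 of list 2 and 69.2% of 26 of list 3, and T in 12.0%, 26.3% and 26.9%. C was the base in none of these. The first 50 transcribed bases at all RefSeq starts, the nearest background at hand, were 30.1% G and 21.7% T. Longer genes gave like values, with G at 81.5%, 73.9% and 78.5% of 232, 199 and 242 regions.

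Short motifs were counted in the same 30-nt windows on the RNA strand only. TGG was present in 18 of 22 member windows and GGT in 18, while GGTGG, which contains both, was present in 7 and TGGTGG in 3. Among 218 windows of regions in longer genes the shares were 83.9%, 78.4%, 44.0% and 12.8%. In 328170 consecutive windows of 30 nt from all RefSeq start windows on the gene's strand, TGG was found in 44.1%, GGT in 32.4%, GGTGG in 4.59% and TGGTGG in 0.980%. In 32817 windows of transcribed bases alone the shares were slightly higher, at 48.6%, 34.9%, 5.19% and 1.24%. These counts describe letters in regions near gene starts, at times the start of another gene, and the other members were not read. The windows of Hspe1, Mrpl43, Prdx5, Ndufa1 and Alyref, for example, came from the start window of another gene. The backgrounds are therefore not matched to the member windows.

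Regions were denser per length of span in compact genes than in longer ones, and their scores ranked higher. Counting the regions of each list by itself, compact genes held 0.0933, 0.0703 and 0.0968 regions per kb of span in lists 1, 2 and 3, against 0.0181, 0.0158 and 0.0155 in genes of 4000 nt or more. The ratio was 5.29 ± 0.914 (SD, n = 3 lists) and was above 1 in 3 of 3 lists. The exact sign-flip permutation test over lists gave p = 0.25, two-sided, which is the smallest that 3 lists allow. Span here is the part of it that no other protein-coding gene covers. The contrast was smaller with the nearest class. Genes of 4000 to 10000 nt held 0.0631 ± 0.00790 regions per kb (SD, n = 3 lists), against a mean of 0.0868 in compact genes. Density fell further in longer classes, to 0.0391 at 10000 to 30000 nt and 0.00711 at 100000 nt or more. Spans of longer genes include long introns, and density per exon was not measured.

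**Figure D1:**
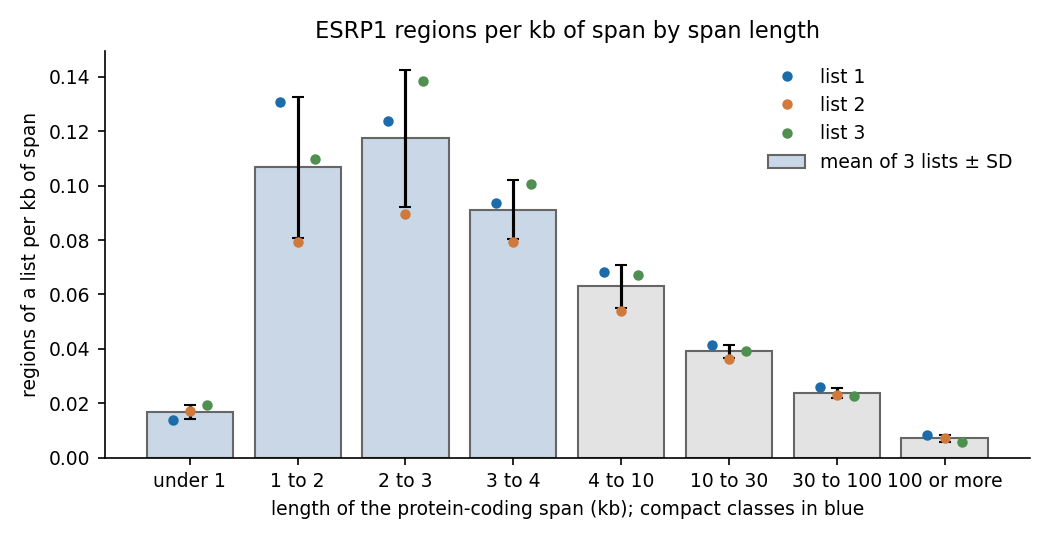
Regions of each list per kb of protein-coding span (vertical axis) by length of the span in kb (horizontal axis), without ribosomal protein and keratin genes. Points are the 3 lists and bars their mean with SD. Spans of 2 to 3 kb have the highest mean, 0.117 per kb, and spans under 1 kb are low at 0.0168. Olfactory and vomeronasal receptor genes, which have no site, are included.

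The compact genes were not alike. Spans under 1000 nt held 0.0168 ± 0.00272 regions per kb (SD, n = 3 lists), fewer than any other class under 100000 nt. Spans of 1000 to 2000 nt held 0.107 ± 0.0258, spans of 2000 to 3000 nt 0.117 ± 0.0250 and spans of 3000 to 4000 nt 0.0911 ± 0.0108, and these 3 classes overlapped within their SDs. The share of genes with a member region was higher in longer spans, from 1.08% of 1571 genes under 1000 nt to 6.73%, 11.1% and 12.5% in the next classes and 15.8% of 3644 genes of 4000 to 10000 nt. The compact set includes 1238 olfactory and vomeronasal receptor genes, which as a class are not expressed in skin, and 0 of them had a site in any list. Without them 9.31% of 2912 compact genes had a region. The densities and shares by span class include these receptor genes and were not computed without them.

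Each list placed the scores of member regions above those of longer genes. Scores are the authors' own, and a region was ranked by its highest score as a percentile of all sites of that list. The median percentile was 77.8, 70.0 and 75.6 in compact genes and 68.9, 64.9 and 66.2 in longer genes. The difference was 7.84 ± 2.38 percentile points (SD, n = 3 lists; 3 of 3 lists, exact sign-flip p = 0.25). Late cornified envelope genes carry part of it, and without them it was 5.44. A region held 3.07, 1.78 and 2.63 sites in compact genes and 2.98, 1.78 and 2.66 in longer ones, a mean difference of 0.0197 ± 0.0611 with no common sign over lists (exact sign-flip p = 1). Their median length was 6 nt in both sets.

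Scores of the same member region ran together between lists. Spearman's rho of the highest scores was 0.722 over 295 member regions with sites in lists 1 and 2, 0.766 over 401 in lists 1 and 3 and 0.714 over 293 in lists 2 and 3. Longer genes gave 0.641, 0.708 and 0.610 over 8087, 9257 and 6753 regions. These are descriptions across regions of the same lists, which share tissue and caller. Of the 255 member regions in all 3 lists, 91 had their highest score at exactly the same nucleotide in each, or 35.7% (95% exact Clopper-Pearson interval 29.8 to 41.9), and 173 had all 3 highest nucleotides within 2 nt. In longer genes the same nucleotide recurred in 35.1% (33.9 to 36.3), an interval that lies inside that of the compact genes.

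Regions in all 3 lists made up 53.2% of members (95% exact interval 48.7 to 57.8) and 48.6% of regions of at least 2 lists over compact and longer genes together. The number of lists is part of the rule, so this share is a description. Of the other 224 members, 146 lacked a site in list 2, 38 lacked list 1 and 40 lacked list 3. In list 2 fewer sites were called altogether, 40014 against 73602 in list 1 and 53864 in list 3.

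The strongest region of a gene is here the one with the highest mean percentile among its regions with sites in all 3 lists. Among the 12 genes with most regions, contacts were scattered along the whole span in some genes and packed into a short stretch in others. Arf6, a small GTPase of endosomal traffic and cortical actin, had 8 regions on chromosome 12 within 69372150 to 69375980, with 18, 4 and 16 sites in lists 1, 2 and 3. They were spread from 247 to 2752 nt from the 5′ end of its 3831-nt span. The sites were moderate: the region 1538 nt from the 5′ end alone had sites in each list, with highest scores of 29.1, 16.7 and 7.85. RefSeq's start table has no entry for Arf6, and the strand was taken from the sites.

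Prdx5 encodes a peroxiredoxin, an enzyme that removes peroxides. It had 7 regions on chromosome 19, 6906697 to 6910106, and 5 of them were in all 3 lists. The region 589 nt from the 5′ end, whose sequence is printed above, had highest scores of 44.6, 57.6 and 43.0, and the region 3013 nt from it 85.8, 24.3 and 32.4. No member region of the 3410-nt span lay nearer to the 5′ end than the first of these.

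Prxl2b, related to Prdx5 by name and encoding a prostaglandin F synthase, also had 7 regions, of which only 1 was in all 3 lists. That region lay 151 nt from the 3′ end with scores of 70.7, 36.3 and 45.9. The 4 regions nearest the 5′ end also lie under Gm52690, an overlapping annotated gene, and could belong to either.

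Fgf22, the gene of a fibroblast growth factor ligand, had 7 regions on chromosome 10, 79755051 to 79757795, with 11, 6 and 13 sites. A single nucleotide 493 nt from the 3′ end had scores of 72.0, 23.3 and 43.1, while the gene's highest score was 30.7 in list 2 and 46.4 in list 3, each in another region. The region 126 nt from the 5′ end was also in all 3 lists, with 16.4, 14.6 and 20.6. H2aj, a replication-independent histone H2A gene, had 5 regions with low scores, none above 26.6 in any list.

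**Figure D2:**
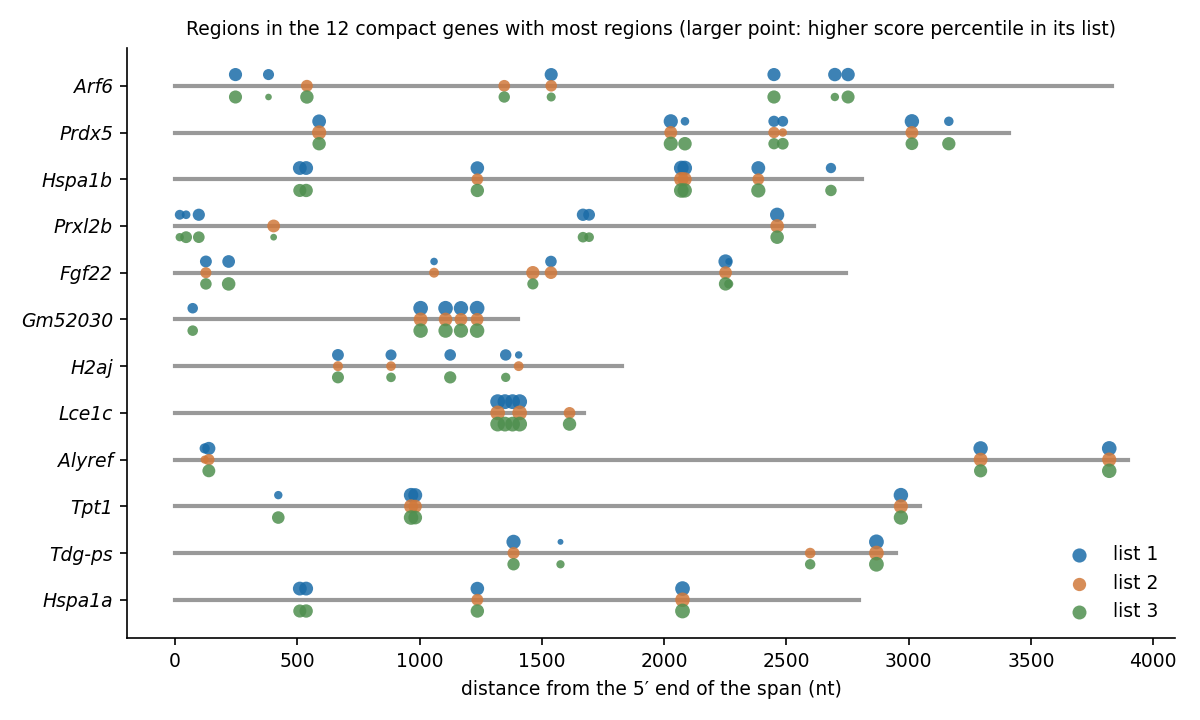
Positions of member regions along the span, as distance from the 5′ end in nt (horizontal axis), in the 12 compact genes with most regions (rows); points are coloured by list, and larger points have a higher score percentile in that list. Arf6 shows 8 regions spread over its span, while Lce1c and Gm52030 each carry 4 regions in a short stretch.

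The inducible Hsp70 genes Hspa1a and Hspa1b, which lie close together on chromosome 17 and encode near-identical chaperones, were contacted at the same offsets. Hspa1b had 7 regions and Hspa1a 4. Both had regions 510, 536 and 1236 nt from the 5′ end, and a strong one 2070 to 2075 nt from it with scores of 159, 73.9 and 120 in Hspa1b and 150, 85.7 and 175 in Hspa1a. Of the sites in Hspa1a, 13 of 18 in list 1, 5 of 5 in list 2 and 11 of 11 in list 3 lay at an offset that also held a site in Hspa1b. Scores at these shared offsets were never identical, and 8, 3 and 4 of them differed by at most 10%. Reads from such copies may not be told apart, so the 11 regions are not 11 independent contacts.

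Alyref encodes an mRNA export factor and Tpt1 the translationally controlled tumour protein. Alyref had 4 regions, 3 of them in all lists, the strongest 75 nt from the 3′ end of its 3896-nt span with 124, 53.7 and 92.6. Tpt1 had 4 as well, and its strongest were 965 nt from the 5′ end (91.1, 47.7 and 101) and 79 nt from the 3′ end (95.8, 50.9 and 78.4). In both genes the region near the 3′ end was high in each list.

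Slc39a7, a zinc transporter gene, Psmb5, the gene of a catalytic proteasome subunit, and Hnrnpa0, an hnRNP gene, had 4 regions each. Psmb5 had its strongest contact 105 nt from the 5′ end, with 155, 86.1 and 116. The second, 68 nt from the 3′ end, had 90.2, 55.0 and 40.5, and another region lies under the microRNA gene Mir686. Hnrnpa0 had 107, 37.7 and 78.8 at its best region, 357 nt from the 5′ end. In Slc39a7 the strongest, 294 nt from the 5′ end, had 17.7, 54.2 and 53.5, and another, 582 nt from the 3′ end, had 73.8, 16.3 and 54.9.

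Gm52030 on chromosome 13 had 5 regions, 4 of them in all lists with scores of 80.5 to 156 in list 1. All 5 lie also under 2310020H05Rik, and RefSeq's start table gives no strand for Gm52030, so that they could belong to the other gene. Tdg-ps, on chromosome 15 and named as a copy of the thymine DNA glycosylase gene, had 4. Its region 79 nt from the 3′ end held 8, 7 and 7 sites and scores of 219, 139 and 163, among the highest of all members.

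Late cornified envelope genes, which encode small proteins crosslinked into the outermost layer of the epidermis, carried many of the strongest contacts. Of the 20 members with the highest mean percentile over 3 lists, 13 lay in Lce genes. Among all 255 members in 3 lists, 16 lay in Lce1 genes and 6 in Lce3 genes. The contacted Lce genes all lie on chromosome 3, where 13 Lce1 genes held 32 regions and 6 Lce3 genes held 6. Lce1c (92679247 to 92680918) had 5 regions and the highest mean percentile of the members in all 3 lists, 98.8, at the single nucleotide 92680656, with scores of 309, 135 and 191. Lce1b (298, 117 and 197), Lce1j (249, 126 and 157), Lce1a2 (244, 116 and 169), Lce1g (228, 115 and 158) and Lce1k (232, 97.1 and 180) followed among the 10 genes with the highest percentile.

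Contacts in Lce1 genes recurred at a spacing of about 30 nt. Between neighbouring highest sites of list 1 in the same gene, 14 of 18 distances were 28 to 32 nt, and 8 were exactly 30 nt. In Lce1c the first 4 regions stood 352, 322, 291 and 262 nt from the 3′ end, and in Lce1e 3 stood at 321, 292 and 262. Over all Lce1 regions the distance from the 3′ end was 58 to 514 nt, with a median of 291.5. List 2 had no site in 15 of the 32, and 16 had sites in all lists.

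**Figure D3:**
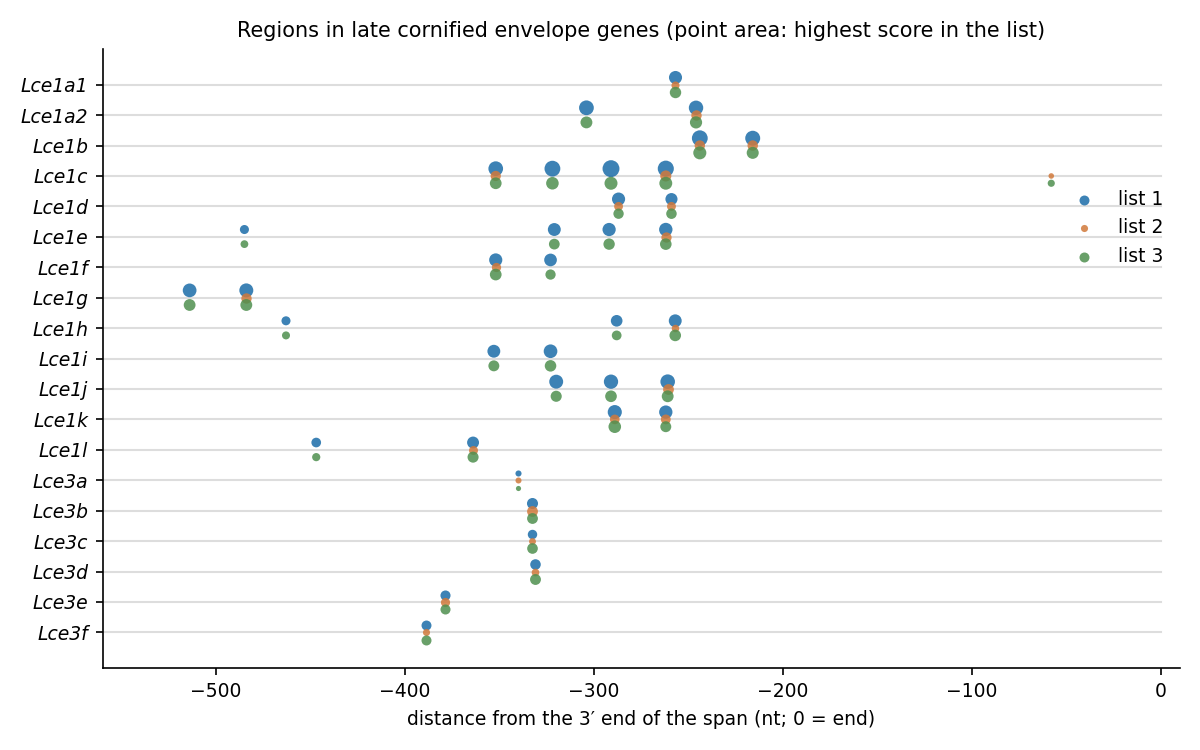
Member regions in Lce1 and Lce3 genes (rows) by distance from the 3′ end of the span in nt (horizontal axis, 0 is the end); points are coloured by list and their area follows the highest score. Lce1 genes show rows of points about 30 nt apart, and each Lce3 gene shows 1 region, 331 to 389 nt from the end.

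The Lce3 genes differed in pattern. Each of the 6 had 1 region, found in all 3 lists, 331 to 389 nt from the 3′ end. Scores ran from 25.5 to 134 in list 1, from 24.4 to 128 in list 2 and from 11.8 to 130 in list 3, with Lce3a lowest in each. Lce3b had 134, 128 and 128. Members of the Lce family have similar sequences, and reads shared among them would make these regions depend on each other.

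Other genes of keratinocyte differentiation were contacted as well. In the list of cornified envelope and keratinocyte differentiation genes, 30 of 59 compact genes had a member region, or 50.8%, against 6.53% of all compact genes, and 24 had one in all 3 lists, against 4.53% of all. Lce genes make up 19 of the 30. Without receptor genes the share of all compact genes was 9.31%. This list, like the other gene lists, was chosen with earlier results of these data known, so the contrast is a description. Calml3, a calmodulin-like gene of stratified epithelium, had 3 regions, the strongest with 156, 116 and 144, 403 nt from the 3′ end.

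Ly6d, a surface protein gene, had 3 regions, all in 3 lists and within 287 nt of the 3′ end, with scores of 20.9 to 30.8 in list 1. Asprv1, the gene of the protease that processes filaggrin, had 3, and list 2 had no site in any of them, while list 1 gave 95.9 and list 3 gave 108 at the first. Ivl, encoding involucrin, had 1 region 113 nt from the 3′ end with 51.7 in list 1 and 86.9 in list 3 and again none in list 2. Sprr2a3, a small proline-rich protein gene, had 1 region in all lists (79.8, 60.7 and 50.5), 57 nt from the 3′ end. These genes thus ranged from contacts in each list to contacts that list 2 lacked.

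Cstb, which encodes the protease inhibitor cystatin B, was in no list of genes but among the strongest members. Its only region, chromosome 10, 78427490 to 78427498, lay 128 nt from the 3′ end with scores of 213, 131 and 161. The tight junction gene Cldn4 had 3 regions near its 3′ end, 2 of them in all lists (89.0, 34.6 and 84.5 at the strongest). Cldn23 had 1 region, and 2 of 19 compact claudin and connexin genes, or 10.5%, had a region, which is near the 6.53% of all compact genes and the 9.31% without receptor genes.

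Immediate early and other compact transcription factor genes had 12 of 38 genes with a region, or 31.6%, against 6.53% of all compact genes. In all 3 lists 11 had one, or 28.95%, against 4.53%. Cebpa encodes a factor of keratinocyte differentiation and had 3 regions. The strongest, 328 nt from the 3′ end, had 124, 41.3 and 113, and another lay 41 nt from the 5′ end with 50.6, 12.4 and 49.8. Ier5 had 3 regions, all in 3 lists, with 88.9, 119 and 63.4 at the strongest. Atf4, the main effector of the integrated stress response, had 99.9, 56.4 and 105 at a single nucleotide 339 nt from the 5′ end. Among the AP-1 genes, Jund had its strongest region 41 nt from the 3′ end (103, 66.2 and 97.4), Junb 223 nt from it (37.8, 14.6 and 19.0) and Jun 887 nt from it (0.496, 16.5 and 47.8). The other region of Jun had 21.9 in list 1 and 29.8 in list 3.

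**Figure D4:**
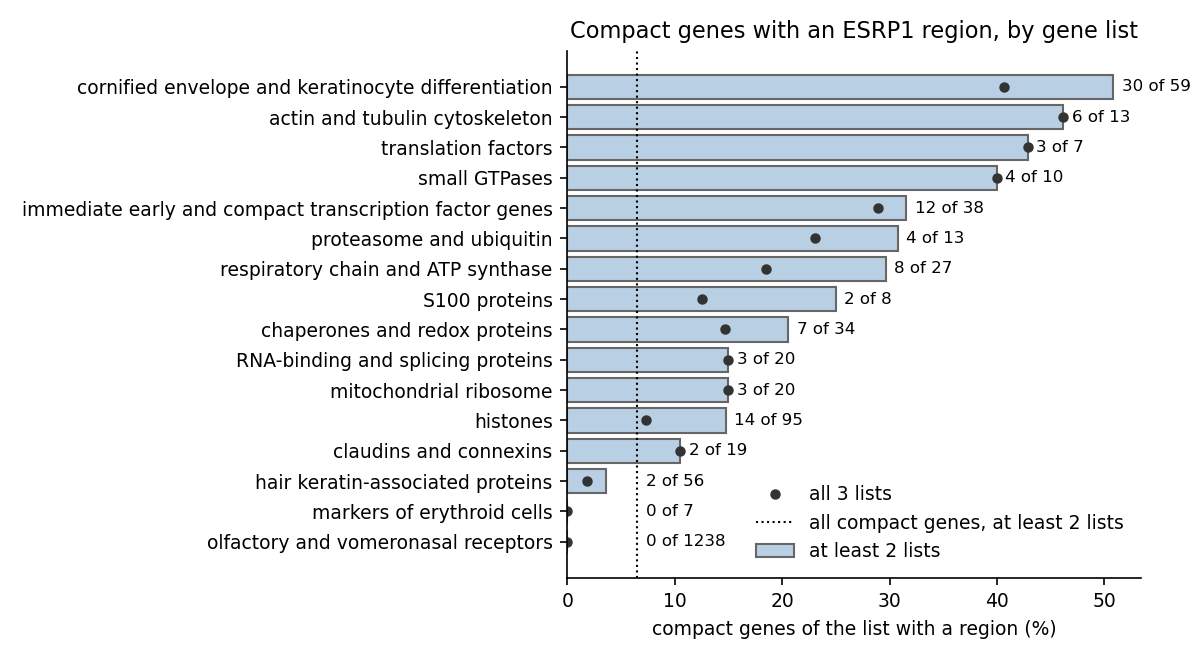
Percent of the compact genes of each list with a member region (bars, at least 2 lists) and with a region in all 3 lists (points), with counts beside the bars and the share of all compact genes as a dotted line at 6.53%. Of the lists plotted, cornified envelope genes have the longest bar at 30 of 59, and 0 of 1238 olfactory and vomeronasal receptor genes have a region. The highest point for all 3 lists is that of the actin and tubulin cytoskeleton list at 6 of 13, which are tubulin genes and Myl6.

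Small GTPases (4 of 10 compact genes), the actin and tubulin cytoskeleton list (6 of 13) and translation factors (3 of 7) had shares above 6.53%. Each share came from few genes. Every one of these 13 genes had a region in all 3 lists. Arf5, which acts at the Golgi, had 149, 55.5 and 95.1 at a region 107 nt from the 3′ end, and Rhob had 67.5, 43.7 and 47.3 at its strongest. The contacted cytoskeleton genes were Tubb2a, Tubb2b, Tubb4b, Tuba1a, Tuba1b and Myl6, a myosin light chain gene, and none was an actin gene. Tubb2a, Tubb2b and Tuba1b encode tubulins with close copies, and the region of Tuba1b 273 nt from the 3′ end had 145, 43.7 and 120 but lies also under Gm41396. Eef1a1, the translation elongation factor gene, had 102, 43.0 and 68.9 at its strongest region, Eef1b2 87.0, 39.4 and 93.5, and Eif1 87.8, 35.3 and 62.6. Eef1a1 is known for processed copies, and its values are uncertain to that extent.

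Subunits of housekeeping complexes followed with smaller shares. Proteasome and ubiquitin genes had 4 of 13 with a region, or 30.8% (3 in all 3 lists). Respiratory chain and ATP synthase genes had 8 of 27, or 29.6% (5 in all 3 lists). Of all compact genes 6.53% had a region, and 9.31% without receptor genes. Psmb6, a catalytic proteasome subunit, had 3 regions, with 18.3, 26.4 and 52.6 at the strongest, and Psmb4 had 2 (64.8, 24.9 and 48.7). Cyc1, encoding cytochrome c1, had 2 neighbouring regions, both in all lists, with 42.5, 38.0 and 35.9 at one and 48.9, 68.2 and 49.6 at the other. Cox7c, a subunit of cytochrome c oxidase, had 76.2, 36.2 and 79.9, and Atp5g1, a subunit of the ATP synthase membrane rotor, had 2 regions without a site in list 2. Mitochondrial ribosome genes had 3 of 20, with Mrpl53 at 91.1, 40.7 and 94.0 and Mrpl43 and Mrpl36 lower.

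Histone genes had 14 of 95 with a region, or 14.7%, against 6.53% of all compact genes and 9.31% without receptor genes. In all 3 lists 7 of 95 had one, or 7.37%, against 4.53% of all compact genes. That 4.53% counts the 1238 receptor genes without a site, and the share without them would be nearer to that of histones. H1f0, a linker histone of differentiated cells, had 49.4, 30.4 and 51.8 at a region 58 nt from the 3′ end, and H1f10 16.1, 16.4 and 42.6. H2ac18 and H2ac19, which are near-identical copies, each had 1 region 501 nt from the 3′ end, without a site in list 1. Replication-dependent histone genes have many such copies. Chaperones and redox proteins had 7 of 34 (5 in all 3 lists) and RNA-binding and splicing proteins 3 of 20. Of the latter, Rbm8a, of the exon junction complex, had 19.3, 12.0 and 25.8 at a region 61 nt from the 5′ end, and Srsf2, an SR splicing factor, 63.2, 19.2 and 37.3. S100 proteins had 2 of 8, or 25.0%, a share from few genes. They were S100a6 with 51.0, 9.91 and 76.0 at a region 88 nt from the 3′ end, and S100a14 with none in list 2. All lists were name patterns, and expression was not measured, so a higher share of contacted genes and a higher share of expressed genes cannot be told apart.

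Markers of other cells were checked at any span length. Of 14 keratinocyte marker genes 11 had a region of at least 2 lists, among them the compact Sfn, Krtdap and Lgals7. Among markers of other cells, 3 of 10 for melanocytes, 3 of 12 for fibroblasts and 0 each of 18 for immune cells, 15 for endothelium and muscle and 9 for erythroid cells had one. Of all 21887 protein-coding genes of any span and family 25.8% had one, so the melanocyte and fibroblast shares lie near this background. None of the contacted melanocyte and fibroblast markers is compact. Of the compact keratinocyte markers only Krtdap had a region in all 3 lists (106, 34.6 and 60.6), Sfn lacked list 2 and Lgals7 lacked list 3. Hair keratin-associated genes had 2 of 56, a lower share than all compact genes.

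Regions in compact genes gathered toward the 3′ end of the span, with a second rise at the 5′ end. Of the regions with a site in a list, 51.2%, 48.9% and 49.7% lay in the last of 3 equal parts of the span in lists 1, 2 and 3, and 23.8%, 27.0% and 26.4% in the first part. Genes of 4000 to 10000 nt had 54.3%, 50.7% and 53.7% in the last part and 23.9%, 27.1% and 25.6% in the first. Over all members 126 lay in the first part, 117 in the middle and 236 in the last. Without Lce genes the mean share over lists was 46.0% in the last part and 28.0% in the first.

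**Figure D5:**
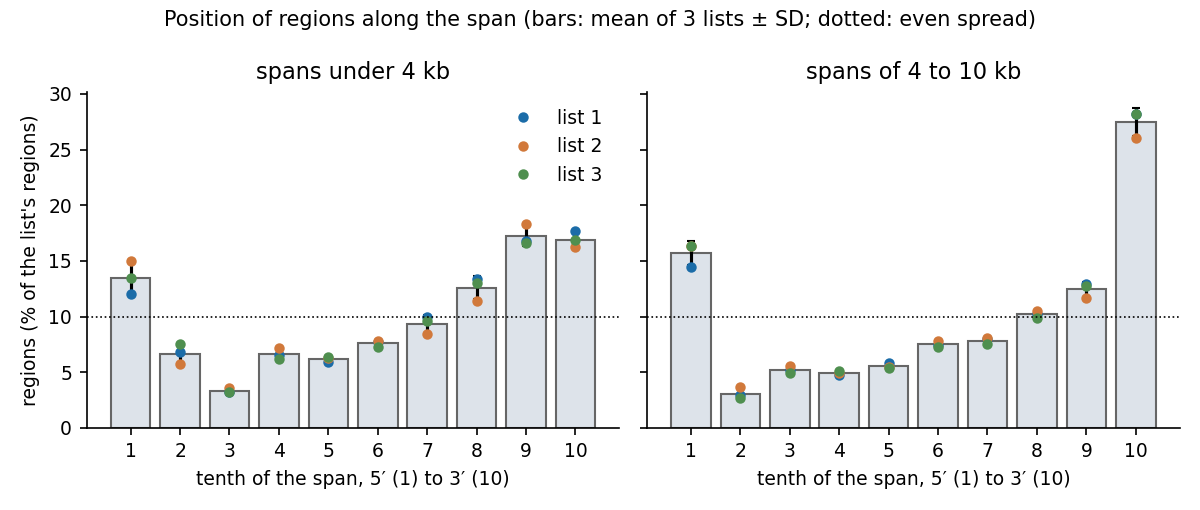
Share of the regions of each list (vertical axis, %) in each of 10 equal bins of the span from the 5′ end (1) to the 3′ end (10), for compact genes and genes of 4 to 10 kb; points are lists, bars their mean with SD, and the dotted line is an even spread. Compact genes have 17.2% in bin 9 and 16.9% in bin 10, whereas longer spans have 27.5% in bin 10.

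Within the last part the shape differed from longer genes. With the span cut into 10 equal bins, bin 10 held 16.9% ± 0.737 of regions in compact genes and 27.5% ± 1.24 in genes of 4000 to 10000 nt (SD, n = 3 lists), and bin 9 held 17.2% ± 0.935 and 12.5% ± 0.682. The ranges of the lists did not overlap in either bin, and this difference was not tested. Equal shares of a compact span cover fewer nucleotides. In nucleotides, 73 members, or 15.2%, lay within 200 nt of the 3′ end and 61, or 12.7%, within 200 nt of the 5′ end. Genes of 4000 to 10000 nt had 10.8% and 9.58%, so near the 3′ end the order was the reverse of bin 10. Within 500 nt of the 3′ end lay 39.0% of members and 23.8% of regions in genes of 4000 to 10000 nt.

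Most contacted compact genes had a single region. Of the 271 genes, 149 had 1 region and 75 had 2, while 3 or more were found in 47 and 5 or more in 8. The mean was 1.77 regions per contacted gene, against 2.31 in longer genes, whose median span was 40412 nt against 2667 nt. Nearest the limit, Sprr2a3 (3961 nt) had 1 region, Arl4c (3967 nt) 4 and Foxc1 (3990 nt) 1, and just above it Exosc3 (4004 nt) had 1, Ppan (4005 nt) 1 and Atp5g3 (4018 nt) 2.

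Some members do not rest on the named gene alone. Of the members, 385 lay on the strand that RefSeq's start table gives for the gene, 84 had no entry and 10, in 8 genes, lay on the opposite strand. Those 8 genes are Hand2, Olig2, Znrf4, Hcrt, Scgb2b3, Zfp296, Ppp1r11 and Gm52481. The regions of Hand2 (365, 88.2 and 172) and Olig2 (147, 73.5 and 129), developmental transcription factor genes, were among the strongest members, although these contacts lie on the strand opposite to RefSeq's gene. Counted apart from strand, 28 members lie under another annotated gene, and some of these, as in Gm52030, are also among those with no entry. Genes named by a Gm number or as -ps numbered 14, with 27 regions, and Gm7429, a 461-nt gene on chromosome X, had 138, 251 and 135. Npbwr1, a neuropeptide receptor gene, had a lone region with 247, 95.4 and 179.

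In 3 members, Tmem254b, Tmem254c and Amd2, neighbouring sites had scores and a spacing found again in another region of the same list. Tmem254b and Tmem254c had 6, 5 and 7 sites each, at 3141 and 3140 nt from the 3′ end, and highest scores of 109, 44.8 and 123 against 113, 44.9 and 123. Their contacts cannot be told apart from those of a single shared sequence.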

How the data were processed

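ESRP1 contacts were analysed from 3 deposited lists of crosslink sites, in each of which the authors joined 2 biological replicates and, per the file headers, called sites with input. Each site has a position and a score that the authors deposited without its scale, so scores were compared between lists only as percentiles. No read counts are in these lists and depth is unknown. A p over lists measures the spread between lists, not between animals. Builds GRCm38 and mm10 appear in the submitters' processing notes beside the tools HOMER, HISAT2 2.1.0 and cutadapt 1.16, for which the sources used here give no role.

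Gene spans came from RefSeq's GRCm38.p6 table, and exons and the mitochondrial genome were not used here. Regions were built as the report describes with python 3.11.15, pandas 2.3.3, numpy 2.4.6 and scipy 1.17.1, and the procedure was tested on simulated data. Lists were compared with the exact two-sided sign-flip permutation test, whose smallest p is 0.25, and shares were given exact Clopper-Pearson 95% intervals, which cover counting error only. Ribosomal protein and keratin genes were recognised by symbol, which keeps Krtap, Krtdap, Mrpl and Rps6k genes. Alternatives changed the joining distance (5 or 20 nt), the span limit (2000 or 6000 nt), the lists required, the score range, the gene assignment, the strand and the lists used.

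The members and the gene lists were chosen with earlier results of these data known. Named are the 15 genes with most regions, the 10 with the highest mean percentile, 1 region a gene, the 3 genes with most regions of each gene list and the 3 spans on either side of the limit. Other named genes were chosen after their values were seen. The list of mitochondrially encoded genes had 0 compact genes to test. Of compact markers of other cells, 0 of 4 immune, 0 of 5 endothelial and muscle and 0 of 7 erythroid genes had a region, and no melanocyte or fibroblast marker was compact.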

Additional observations from a re-analysis of the deposited data

How the results depend on the processing

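No paired analysis was possible because each list joins 2 replicates and holds no value per library. Compact genes held more regions per kb of span, and had higher score percentiles, than longer genes under every alternative run, with ratios of 4.81 to 5.70 and differences of 5.43 to 7.88 when each list was left out. Member regions numbered 255 with sites of all 3 lists required, 134 at a limit of 2000 nt, 868 at 6000 nt and 294 to 401 when each list was left out, and genes numbered 84 at 2000 nt and 479 at 6000 nt. The share of members in all lists was 58.3% with the highest 50% of scores. The share in the last part of the span was 51.2% with those scores, 51.2% with joining at 20 nt, 52.9% with all 3 lists required, 62.0% at 2000 nt, 46.0% without Lce genes and 49.3% to 51.9% when each list was left out. In the first part it was 23.1% with all 3 lists required, 15.1% at 2000 nt, 28.0% without Lce genes and 23.5% to 27.5% when each list was left out. The same top nucleotide recurred in 48.3% to 55.4% of regions when each list was left out, since 2 lists then had to match and not 3. The difference in sites per region turned negative with all 3 lists required (-0.0192), at 2000 nt (-0.124), without list 1 (-0.0483) and without list 2 (-0.0126), and was 0.113 without list 3. Except for the changed limits and requirements, the cause was not tested. Under alternatives 103 values were counted as the same, 24 as moved and 4 as changed in sign. Values counted as the same could still differ in size. The percentile difference, 7.84 in the main run, was 17.5 at 2000 nt and 3.57 with the highest 50% of scores. Leaving out Lce genes, genes opposite to RefSeq's strand, genes with repeated scores or genes named by a Gm number or -ps was chosen after seeing the data. The ratio of regions per kb was lowest, at 3.65, with a limit of 2000 nt. With all 3 lists required this ratio was 6.34, from shared regions and with no value per list. The share in all lists with a list left out was not run, since both remaining lists are then required.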

Other observations

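A further 544 regions in compact genes on the strand with most sites were found in 1 list only, and 2 regions of at least 2 lists lay on the strand with fewer sites. Regions shared by lists 1 and 2 alone made up 8.35% of members and 17.7% of regions in longer genes. Those shared by lists 1 and 3 alone made up 30.5% and 27.2%, and those shared by lists 2 and 3 alone 7.93% and 6.76%. These shares are part of how members were chosen and were not tested.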
